A study of Mus musculus with 8 samples.

Results

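The genes described here are 31 imprinted genes of the mouse that lie outside the Dlk1 cluster on chromosome 12. They were taken by symbol from the RNA-seq table, which listed 24062 genes, and all 31 were found there. DNA methylation and RNA were measured in clones of the immortalised mouse embryonic fibroblast line NIH3T3. Clones 10 and 12 carried 14-3-3ε, a protein that binds phosphorylated partners, in the plasmid p3xFLAG-CMV-10, which expresses a FLAG-tagged protein from a viral promoter. Clones 2 and 3 carried the control vector. Each clone grew from a single colony, all were held in medium with 10% serum after selection in 800 μg/mL of the drug G418, and the 14-3-3ε clones were checked by western blot for the tag. Every clone was measured by RNA-seq and by RRBS (reduced representation bisulfite sequencing), in which bisulfite-treated ends are read of fragments cut at CCGG by the enzyme MspI, so that there were 8 samples in 4 groups of 2. The comparison asked how methylation and transcripts differ in clones labelled as overexpressing 14-3-3ε. The RNA of Ywhae, the gene of 14-3-3ε, did not pass the test between the clones, with a mean normalized count of 15674 and a log2 fold change of -0.03 (SE 0.18, adjusted p 0.942) by the authors' deposited table. The RNA table therefore does not show the labelled overexpression, and whether reads of the tagged construct count towards Ywhae is not known here. Below, 14-3-3ε clones are the clones so labelled.

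An imprinted gene is expressed mainly from the allele inherited from one parent. The choice is set in the germ line by DNA methylation of control regions on the other or the same allele, and is kept in the body by the maintenance methyltransferase Dnmt1 together with Uhrf1 and, at many control regions, by the zinc finger protein Zfp57 and its partner Trim28. At several loci a long non-coding RNA expressed from the paternal allele, such as Airn or Kcnq1ot1, silences neighbouring genes in cis. Many paternally expressed genes promote growth of the fetus and many maternally expressed ones restrain it. By textbook knowledge, and not by measurement here, 9 of the 31 are maternally expressed, 21 paternally expressed, and Gnas has transcripts of both kinds. The parental bias of Grb10 and Ube3a depends on the tissue, with Ube3a imprinted mainly in neurons, and of Inpp5f only 1 transcript variant is imprinted. The tables do not separate alleles.

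Neither table gives values for single clones. The spread between clones can therefore not be shown, and the depth per sample is unknown. Higher and lower mean 14-3-3ε clones relative to control clones, an assumption, since the files do not state which way the sign runs and Ywhae does not settle it. Fibroblast markers stood where the cell line would place them: 8 of 9 fixed markers, such as Col1a1, Fn1 and Pdgfra, had a mean normalized count of at least 4843 by the authors' deposited table and Fap was listed at 0. Of these 8, 4 were called higher, all collagen or PDGF receptor genes, against 10.9% of all tested genes called in either direction. They were Col1a1 (log2 fold change 0.98, adjusted p 0.0182), Col1a2 (0.89, 0.00543), Pdgfra (1.70, 1.44e-06) and Pdgfrb (1.36, 0.000266) by the authors' deposited table. Vim, S100a4, Fn1 and Thy1 were not called, with log2 fold changes of -0.06, 0.09, 0.13 and 0.50 by the authors' deposited table. The mean normalized count is read as the mean over the 4 RNA libraries of counts scaled to library size. Of 16 fixed markers of epithelium, blood, endothelium, neurons and muscle, 4 reached the limit of 33 used below, namely Krt8, Cd68, Map2 and Des, with values from 51.1 to 781 by the authors' deposited table. Of these 4, Map2 (log2 fold change -1.36, adjusted p 0.00564) and Des (-1.28, 0.00931) were called lower by the authors' deposited table. The part of these marker differences in the results was not tested.

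Promoters of 5 members are shown first because the results on methylation return to them. Each is the 250 bases before an annotated transcription start, from RefSeq in build GRCm38.p6 (the assembly of mm10), 5′ to 3′ along the gene, with the CG of each cytosine of q under 0.05 in capitals. Phlda2 (chr7:143502525-143502774, minus strand) held the most called cytosines of the member promoters. Zim1 (chr7:6696433-6696682, minus strand), Snrpn (chr7:60005200-60005449, minus strand, the promoter that lies in the imprinting centre of its domain) and Zdbf2 (chr1:63273019-63273268, plus strand, an internal start) also held called cytosines, and Peg3 (chr7:6730420-6730669, minus strand) is an expressed member in whose promoter RRBS listed no cytosine.
Phlda2: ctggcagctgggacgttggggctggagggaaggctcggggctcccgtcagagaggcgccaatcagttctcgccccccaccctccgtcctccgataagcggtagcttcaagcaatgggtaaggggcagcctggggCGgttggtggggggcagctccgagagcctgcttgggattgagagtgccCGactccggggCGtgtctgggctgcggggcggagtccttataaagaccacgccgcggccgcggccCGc
Zim1: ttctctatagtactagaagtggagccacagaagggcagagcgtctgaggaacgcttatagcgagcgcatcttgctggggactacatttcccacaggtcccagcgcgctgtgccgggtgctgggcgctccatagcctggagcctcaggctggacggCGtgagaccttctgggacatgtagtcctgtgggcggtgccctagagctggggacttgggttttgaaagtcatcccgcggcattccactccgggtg
Snrpn: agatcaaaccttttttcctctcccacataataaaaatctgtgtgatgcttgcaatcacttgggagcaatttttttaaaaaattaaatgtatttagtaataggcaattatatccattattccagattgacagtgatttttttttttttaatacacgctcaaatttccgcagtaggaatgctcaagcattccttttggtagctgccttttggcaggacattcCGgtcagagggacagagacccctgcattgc
Zdbf2: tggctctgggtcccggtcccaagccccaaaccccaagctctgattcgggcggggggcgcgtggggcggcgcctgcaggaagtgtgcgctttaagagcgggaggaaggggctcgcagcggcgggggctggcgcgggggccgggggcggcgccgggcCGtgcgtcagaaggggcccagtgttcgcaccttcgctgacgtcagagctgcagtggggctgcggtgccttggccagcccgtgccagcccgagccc
Peg3: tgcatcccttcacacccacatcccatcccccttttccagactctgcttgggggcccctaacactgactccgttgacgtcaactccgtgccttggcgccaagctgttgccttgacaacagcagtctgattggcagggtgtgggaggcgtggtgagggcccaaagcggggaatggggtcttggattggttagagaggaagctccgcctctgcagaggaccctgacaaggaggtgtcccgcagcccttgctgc
RefSeq promoters were given for 26 of the 31 members, with 39 entries in all since some genes have several starts. All 274 listed cytosines whose CG lay inside these entries fell on the C of a CG of the RefSeq sequence. CCGG, the same on both strands, was found in 18 of the 39 entries (46.2%, against 47.1% of 32851 promoters of the same length), and the 21 entries without it, that of Peg3 among them, had no listed cytosine. Of the 18 entries with CCGG, 14 had a listed cytosine, so the site alone did not bring coverage. TGCCGC, the motif that Zfp57 binds when methylated, searched on both strands, was in 6 of 39 entries (15.4%, against 8.68% of all promoters), of which 2, of Mest, overlap each other. This motif holds a CG, and the median entry of a member had 11 CGs, against 6 in all promoters. The comparison does not allow for that. A core motif of CTCF, the factor that binds the control region between H19 and Igf2, was in none of the 39 on either strand and in 0.0335% of all promoters.

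Expression divided the members. A mean normalized count of 33 or more, down to which the authors gave adjusted p-values, was reached by 16 of the 31 (51.6%, against 47.7% of all listed genes), and these are called expressed below. The expressed members were 12 of 21 paternally expressed genes, 3 of 9 maternally expressed genes and Gnas. Of the other 15, called silent, 10 had mean normalized counts from 0.246 for Magel2 to 6.78 for Rasgrf1 and 5 were listed at 0 by the authors' deposited table. Those at 0 (Peg10, Sgce, Mest, Snrpn and Nap1l5) are all paternally expressed, and across all genes 27.4% were listed at 0. Closest to the limit stood Usp29 at 36.4 above it and Rasgrf1 at 6.78 and Slc22a18 at 6.65 below it by the authors' deposited table.

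**Figure D1:**
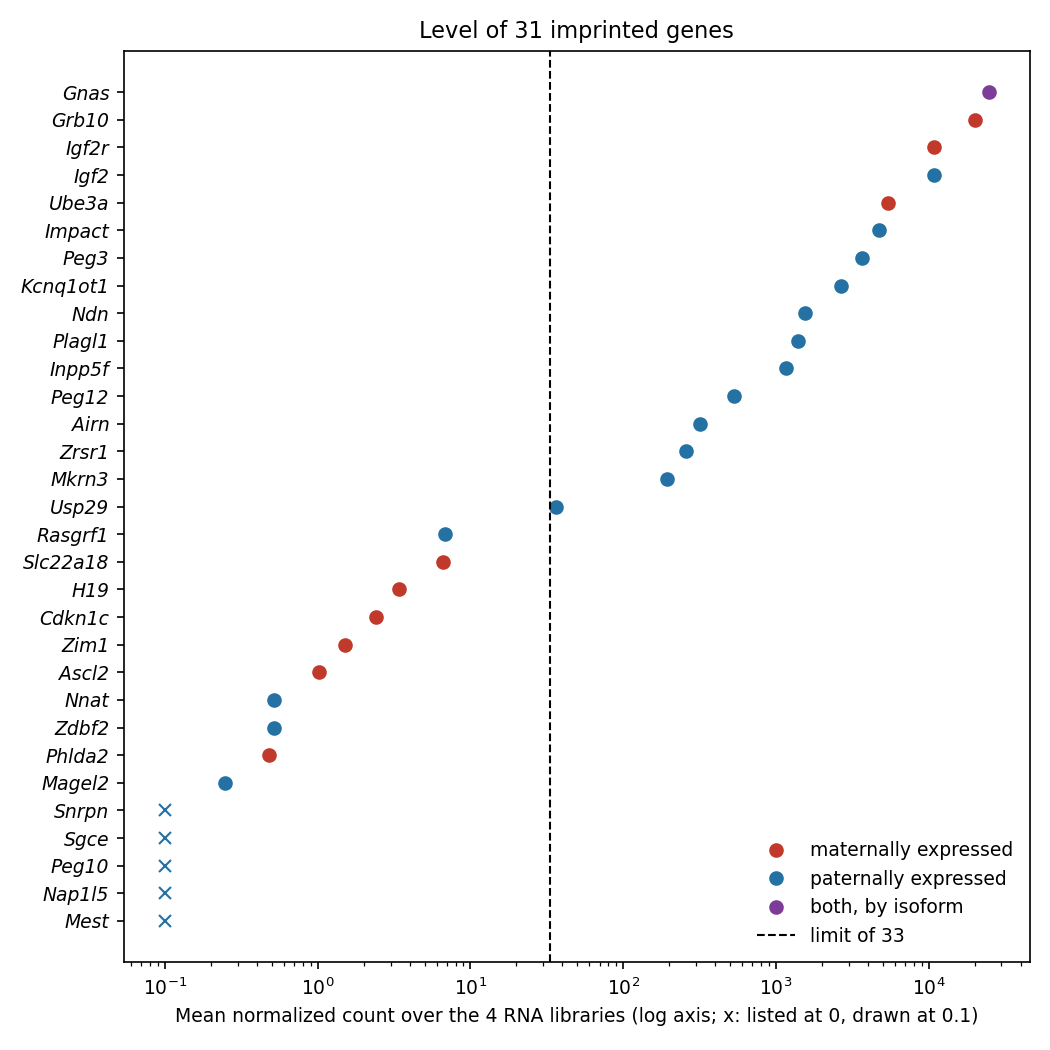
Mean normalized count over the 4 RNA libraries (log axis) of the 31 imprinted genes, coloured by the allele known to be expressed, with crosses for genes listed at 0 (drawn at 0.1) and a dashed line at 33. Of the genes right of the line 12 are paternally expressed, and 6 of 9 maternally expressed genes lie left of it; counts are not scaled by gene length, so the order of genes is not an order of transcript number.

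In the comparison of RNA, no imprinted member was called higher or lower in 14-3-3ε clones. At an adjusted p under 0.05 of the authors' DESeq2 comparison, 0 of 16 expressed members were called, against 10.9% of 11482 tested genes, and at an unadjusted p under 0.05 there were 2, Peg3 and Peg12, against 23.8%. The median log2 fold change was 0.04 over the 16 members and -0.00 over all tested genes, and the median size regardless of sign was 0.27 for both. Estimates were positive for 9 members and negative for 7, and ran from -0.56 for Peg12 to 0.83 for Peg3 on the log2 scale by the authors' deposited table. For 10 of the 16 the 95% interval, taken as the estimate ± 1.96 standard errors, lay wholly within a 2-fold change in either direction. A missed threshold does not show that the others were alike in both kinds of clone.

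**Figure D2:**
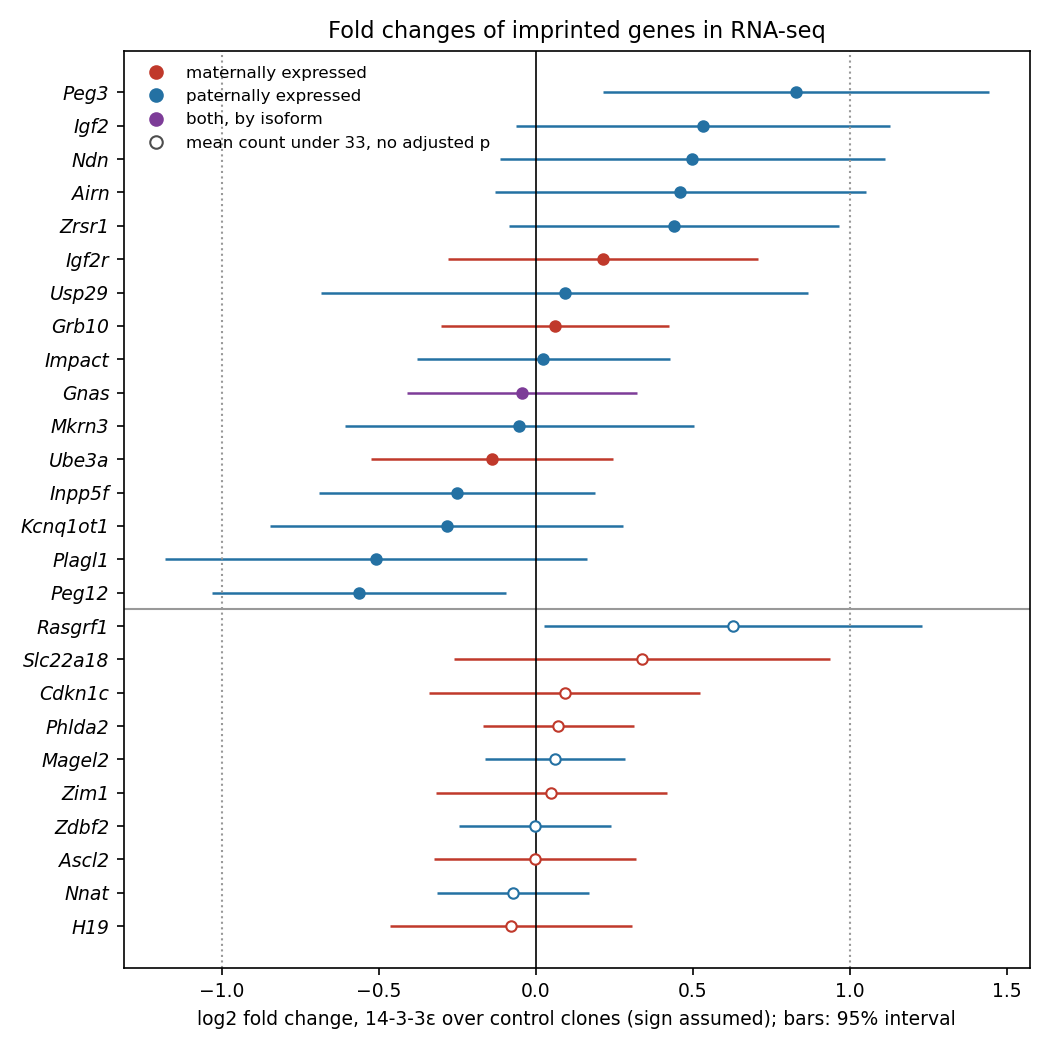
Log2 fold change with its 95% interval for the 26 imprinted genes with an estimate, 14-3-3ε over control clones with the sign assumed, expressed genes above the grey line and silent genes (open points) below it; dotted lines mark 2-fold. The 16 expressed genes run from -0.56 to 0.83. The intervals of Peg3, Peg12 and the silent Rasgrf1 leave out 0 before adjustment for the number of genes.

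Peg3 came nearest to a call. This gene encodes a large zinc finger protein of a paternally expressed domain on chromosome 7 (6703892 to 6730462, as RefSeq annotates it) and had a mean normalized count of 3655 by the authors' deposited table. Its log2 fold change was 0.83 (standard error, SE, 0.31), its interval 0.21 to 1.44 and its adjusted p 0.0668 by the authors' deposited table, past the looser threshold of 0.1 that 15.1% of tested genes passed. Usp29, a gene for a deubiquitinating enzyme whose annotated span begins 96 bases from that of Peg3, had a mean normalized count of 36.4 and a log2 fold change of 0.09 (SE 0.40) by the authors' deposited table. The SE of Usp29 was the widest of the 16, and its interval ran from -0.69 to 0.87. Zim1, the maternally expressed zinc finger gene of the same domain, was silent at 1.51 by the authors' deposited table.

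At the Igf2 to H19 locus on distal chromosome 7, the fetal growth factor gene Igf2 was expressed and the maternally expressed non-coding RNA H19 was silent. Igf2 had a mean normalized count of 10908 and a log2 fold change of 0.53 (SE 0.30, adjusted p 0.275) by the authors' deposited table. Igf2os, an RNA gene annotated from the other strand whose span shares 7137 bases with that of Igf2, rose, with a mean normalized count of 240, a log2 fold change of 2.01 (SE 0.39, adjusted p 2.13e-05) by the authors' deposited table. The library kit keeps strand, but the sources used here do not say whether the counting used it, so reads of Igf2 and Igf2os cannot be told apart for certain. H19 had a mean normalized count of 3.42 and a log2 fold change of -0.08 (SE 0.20) by the authors' deposited table.

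The receptor that clears Igf2 from the cell surface, Igf2r, and the non-coding RNA that silences it on the paternal allele, Airn, overlap on chromosome 17 over 28396 bases. Igf2r had a mean normalized count of 10911 and a log2 fold change of 0.21 (SE 0.25, adjusted p 0.671) by the authors' deposited table. Airn had 318 and a log2 fold change of 0.46 (SE 0.30, adjusted p 0.360) by the authors' deposited table. Neither passed the test, the interval of Igf2r lay within 2-fold and that of Airn reached 1.05, and the same doubt about strand holds for this pair.

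In the Kcnq1ot1 domain, the non-coding RNA was expressed and the 4 maternally expressed members were silent. Kcnq1ot1 had a mean normalized count of 2662 and a log2 fold change of -0.28 (SE 0.29, adjusted p 0.601) by the authors' deposited table, and the overlapping potassium channel gene Kcnq1 had 1.77. The 4 members were Cdkn1c, an inhibitor of cyclin-dependent kinases, Phlda2, a growth restrainer of the placenta, the transporter gene Slc22a18 and Ascl2, a transcription factor gene of the trophoblast. Their mean normalized counts were 2.40, 0.478, 6.65 and 1.01 by the authors' deposited table, too low for an adjusted p. Their log2 fold changes of 0.09, 0.07, 0.34 and -0.00 by the authors' deposited table are moderated estimates, which stay near 0 in genes with few reads. Not every imprinted gene near these members was silent. On the fixed list of other imprinted genes below, Cd81 had a mean normalized count of 8337 and Nap1l4 3071, while Tspan32 had 14.7, by the authors' deposited table.

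Of the genes of the Snrpn to Ndn domain on chromosome 7, known from the Prader-Willi and Angelman regions of human, 4 were expressed. Ndn, a growth-suppressing member of the MAGE family, had a mean normalized count of 1547 and a log2 fold change of 0.50 (SE 0.31, adjusted p 0.334) by the authors' deposited table. Mkrn3, a ubiquitin ligase gene, had 194 and a log2 fold change of -0.05 (SE 0.28, adjusted p 0.941) by the authors' deposited table. The Ndn to Peg12 stretch spans 116234 bases and holds Magel2, silent at 0.246, between expressed genes.

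Peg12, a relative of the Wnt pathway genes Frat1 and Frat2, had a mean normalized count of 529 and a log2 fold change of -0.56 (SE 0.24, adjusted p 0.112) by the authors' deposited table. Its interval ran from -1.03 to -0.10. Frat2, named after its values were seen, fell by 1.05 on the log2 scale (SE 0.33, adjusted p 0.0189) by the authors' deposited table. Frat1 did not share this fall. It had a mean normalized count of 4.34, a log2 fold change of 0.32 (SE 0.27) and no adjusted p by the authors' deposited table. The sources used here do not say how reads were split between these similar genes, so the value of Peg12 is uncertain. Ube3a, a ubiquitin ligase gene at the far end of the domain, had 5420 and a log2 fold change of -0.14 (SE 0.20, adjusted p 0.729) by the authors' deposited table. Snrpn, which encodes a splicing protein, and Snurf within it were both listed at 0, and the counting of reads shared by these overlapping genes is unknown here.

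The remaining expressed members stand alone or in small groups. Plagl1, a zinc finger transcription factor gene that regulates other imprinted genes, had a mean normalized count of 1401 and a log2 fold change of -0.51 (SE 0.34, adjusted p 0.378) by the authors' deposited table, with an interval from -1.18 to 0.16. Grb10, an adaptor that damps insulin and IGF receptor signals, had 20116 and a log2 fold change of 0.06 (SE 0.19, adjusted p 0.889) by the authors' deposited table. Gnas, the gene of the stimulatory G protein alpha subunit, had 24714 and a log2 fold change of -0.05 (SE 0.19, adjusted p 0.920) by the authors' deposited table. The intervals of Grb10 and Gnas were the narrowest of the 16, that of Grb10 reaching up to 0.42 and that of Gnas down to -0.41 on the log2 scale.

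Impact, a regulator of translation, had a mean normalized count of 4705 and a log2 fold change of 0.02 (adjusted p 0.967) by the authors' deposited table. Inpp5f, a phosphoinositide phosphatase gene, had 1159 and a log2 fold change of -0.25 (adjusted p 0.540) by the authors' deposited table. Zrsr1, a retrogene related to a splicing factor that lies inside Commd1, had 260 and a log2 fold change of 0.44 (adjusted p 0.317) by the authors' deposited table, and its similarity to Zrsr2 makes its reads uncertain. None of these 3 intervals reached 2-fold. Among silent members Rasgrf1, a Ras exchange factor gene, had the largest log2 fold change in size, 0.63, with an unadjusted p of 0.0416 and no adjusted p by the authors' deposited table. The others were Nnat and Zdbf2, at mean normalized counts of 0.520 and 0.517 by the authors' deposited table.

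Among 44 other imprinted genes on a fixed list, 42 were in the table, 23 were tested and 0 were called by the authors' deposited table, against 10.9% of all tested genes. The 23 tested genes had log2 fold changes from -0.49 to 0.56 and a median of -0.00. Asb4, on the list but without an adjusted p, had a mean normalized count of 20.0 by the authors' deposited table. Its log2 fold change was -1.20 (SE 0.37, unadjusted p 0.00127 in the authors' DESeq2 comparison). Igf2os, which rose as described above, was neither a member nor on this list. Of 20 genes that set or keep imprints, 18 were tested and 1 fell, a share below that of all tested genes, with a median log2 fold change of -0.21 by the authors' deposited table. It was Hells, the gene of a chromatin remodelling ATPase needed for full DNA methylation, which fell by 1.09 (SE 0.20, adjusted p 6.91e-06) on the log2 scale by the authors' deposited table. Zfp57, the reader of imprinted control regions, had a mean normalized count of 3823 and a log2 fold change of -0.22 (SE 0.26, adjusted p 0.667) by the authors' deposited table. Trim28 stood at -0.20 (adjusted p 0.519) and Uhrf1 at -0.67 (SE 0.33, adjusted p 0.194) in log2 fold change by the authors' deposited table. Dnmt1 stood at -0.45 (SE 0.27, adjusted p 0.309). Suz12, which came nearest to a call after Hells, stood at -0.53 (SE 0.21, adjusted p 0.0885) by the authors' deposited table.

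In the comparison of methylation near gene ends, no imprinted member was called. The window reached 1000 bp to either side of a gene's first or last annotated base, whichever had more cytosines listed around it, as the gene spans came without strand. It was called when at least 5 cytosines were listed, at least 3 and at least 10% of them had q under 0.05, and none of these went the other way. Of the 31 members, 26 had listed cytosines in the window (5 to 252 each), and 0 of 26 were called, against 3.01% of 14704 genes. Igf2, Mest, Snrpn, Slc22a18 and Impact had no listed cytosine at either end. Sgce and Peg10, 101 bases apart, share their 26 cytosines, and Peg3 and Usp29 share their 5.

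Counted once each, these windows held 1521 cytosines, of which 7 were called higher and 13 lower (1.31% in all). In the gene-end windows of all genes 1.49% of cytosines were called higher and 1.93% lower, 3.42% in all. Regardless of sign, differences averaged 5.09 percentage points in members and 3.40 in the windows of all genes, averaged here over the authors' deposited table. Members thus had a smaller share of called cytosines but larger differences on average. The size of a difference also depends on the starting methylation and the coverage of a cytosine. Neither is known here, so the averages do not show that members shifted more than other genes. Windows of maternally expressed members had 1.08% of 740 cytosines called and those of paternally expressed ones 1.63% of 735. Windows of silent members had 13 of 526 called (2.47%) and those of expressed members 7 of 995 (0.704%). Cytosines of a window share their reads and no test was made of these shares.

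**Figure D3:**
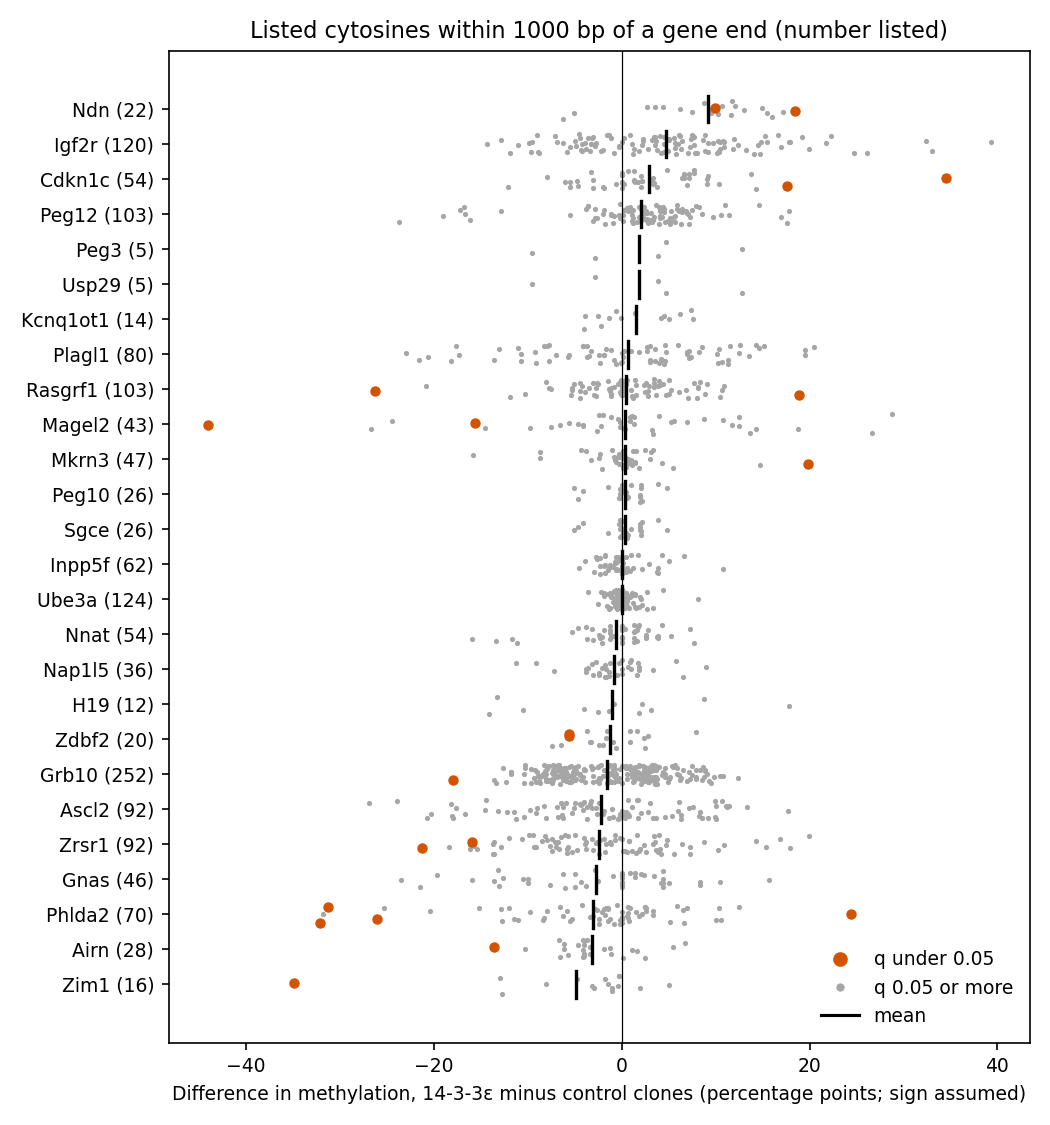
Difference in methylation in percentage points, 14-3-3ε minus control clones with the sign assumed, of each listed cytosine within 1000 bp of the gene end used, for the 26 imprinted genes with listed cytosines (number in parentheses); orange points have q under 0.05 and black bars are means. Means lie within 5 points of 0 for 25 genes and at 9.19 for Ndn, and called cytosines stand in 11 genes.

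Window means lay within 5 percentage points of 0 in 25 of the 26 members, against 93.5% of all genes with at least 5 listed cytosines. The exception was Ndn, where the mean over 22 cytosines was 9.19 points, averaged here over the authors' deposited table. There 20 of the 22 differences were positive and 2 cytosines were called higher, and 99.5% of genes had a lower mean. Its cytosines lay inside the transcribed stretch after the start, and its promoter had none listed. Igf2r had a mean of 4.76 points over 120 cytosines, 79 of them positive, with 0 called by the authors' deposited table. At the other end of the order Zim1 had a mean of -4.93 points over 16 cytosines, 14 of them negative, with 1 called lower by the authors' deposited table.

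Phlda2 had the most called cytosines near its start. In the promoter printed above, 28 cytosines were listed with a mean of -8.95 points, 20 negative and 6 positive, averaged here over the authors' deposited table. Positions -2, -56, -57 and -67 from the start were lower, with differences of -31.3, -39.7, -35.7 and -39.4 points, and position -115 was higher, with a difference of 25.1 points, at q from 0.000116 to 0.0416 by the authors' deposited table. Positions -56 and -57 are the 2 strands of 1 CG. The fixed 1 kb window from 143502001 to 143503000 had 6 of 84 cytosines called lower and 1 higher, so the rule did not call it. Its RNA mean normalized count of 0.478 by the authors' deposited table allows no statement on expression.

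In the other promoters printed above fewer cytosines were called. In that of Zim1, 1 of 16 listed cytosines was lower, with a difference of -34.9 points and q of 1.78e-07 by the authors' deposited table. In that of Snrpn, 1 of 3 was lower, with a difference of -22.4 points and q of 0.00101 by the authors' deposited table, and all 3 were negative. Zdbf2, a gene for a zinc finger protein, had 2 of 30 higher, by 17.9 and 17.1 points on the 2 strands of 1 CG by the authors' deposited table. Elsewhere in Zdbf2 calls went the other way. Within 1000 bp of its first annotated base 2 of 20 cytosines were lower. Over the whole gene with 5000 bp on each side 2 were higher and 4 lower. In 1 of the 4 promoters of the expressed gene Igf2 (chr7:142657497-142657746, minus strand, not printed) 1 of 4 listed cytosines was higher, with a difference of 19.1 points and q of 0.00829 by the authors' deposited table, and the other 3 promoters had none listed. No cytosine was called in the remaining member promoters. It was 0 of 22 in the promoter of the expressed gene Plagl1, which is a control region methylated on the maternal allele. For Grb10 it was 0 of 44 in the promoter before the start at 12037420, and the promoter before the start at 12027971 had none listed.

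**Figure D4:**
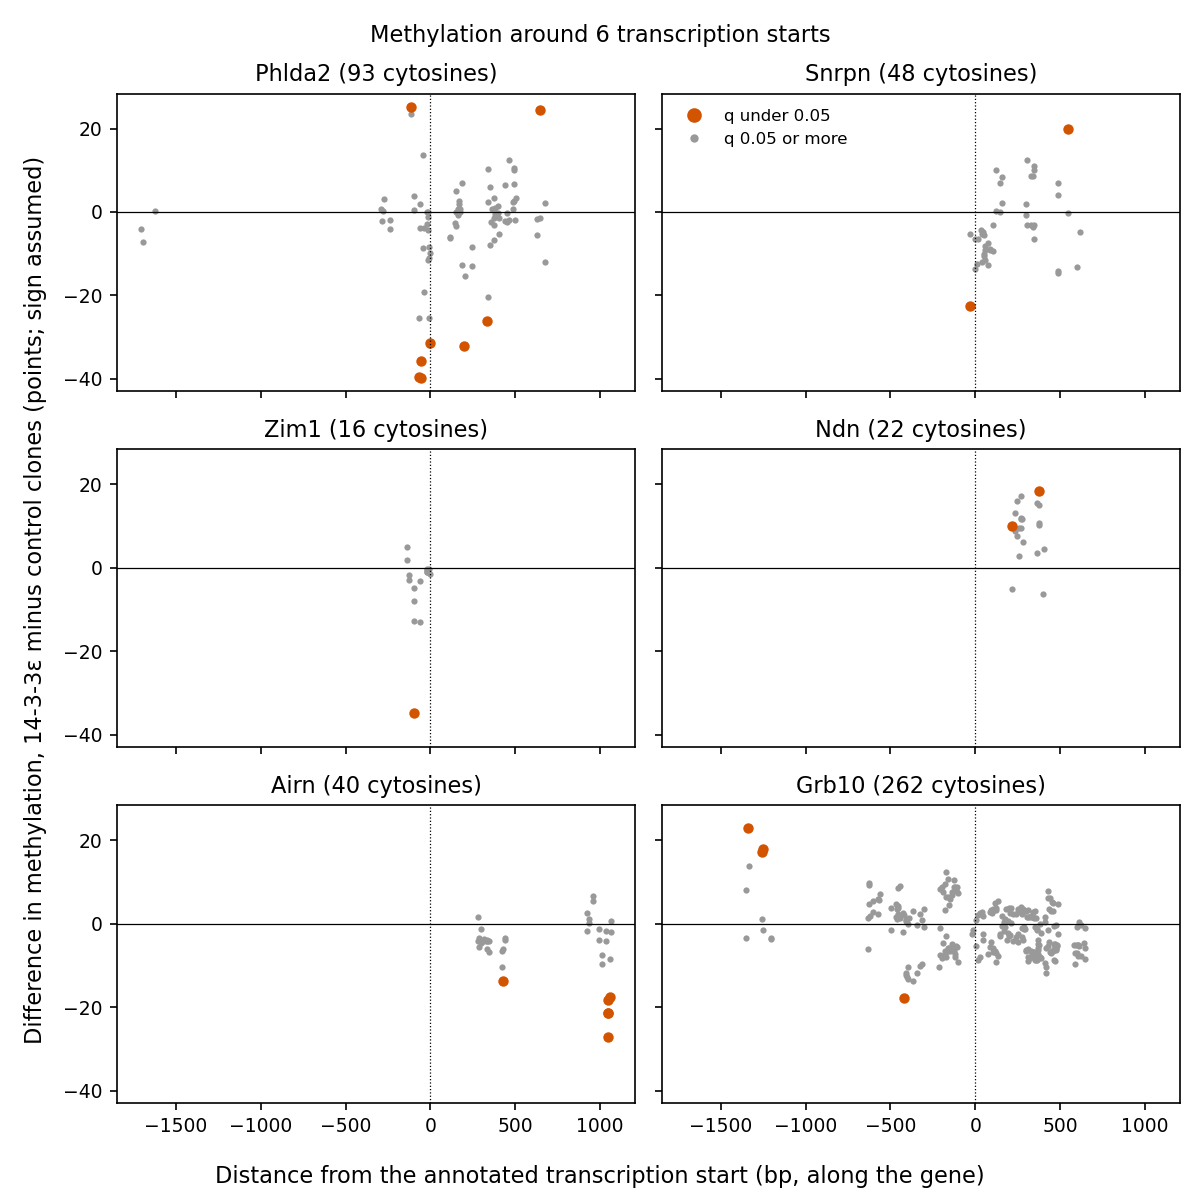
Difference in methylation in percentage points, 14-3-3ε minus control clones with the sign assumed, of each listed cytosine within 2000 bp of an annotated transcription start against its distance from the start along the gene, for 6 imprinted genes; orange points have q under 0.05. Phlda2 has 6 lower and 2 higher cytosines of 93, Airn 6 lower and 0 higher of 40, and Ndn 2 higher and 0 lower of 22.

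Across whole genes with 5000 bp on each side, 147 fixed windows of 1 kb held at least 5 listed cytosines. By the same rule 3 were called higher and 2 lower, 3.40% in all. Of 125698 windows of the genome 1.07% were called higher and 2.38% lower, 3.45% in all, so the members' share was near the background. The lower window whose mean lay farther from 0 was inside Sgce, the epsilon-sarcoglycan gene (chromosome 6, 4733001 to 4734000), with 4 of 12 cytosines lower and a mean of -10.5 points, averaged here over the authors' deposited table. The other lower window lay inside both Airn and Igf2r, just after the start of Airn (chromosome 17, 12742001 to 12743000). There 5 of 20 cytosines were lower, with a mean of -6.48 points averaged here over the authors' deposited table. The control region of Igf2r and Airn lies at the start of Airn.

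The 3 higher windows were in Zim1, in Usp29 and next to Grb10. In Zim1 (chromosome 7, 6678001 to 6679000) 4 of 12 cytosines were higher with a mean of 8.46 points, averaged here over the authors' deposited table. In Usp29 (chromosome 7, 6913001 to 6914000) it was 3 of 14 with a mean of 5.83 points, and upstream of the Grb10 start (chromosome 11, 12038001 to 12039000) 3 of 18 with a mean of 5.44 points, averaged here over the authors' deposited table. Zim1 was thus lower at 1 promoter cytosine and higher at 5 in its gene body, 1 of them in the next window, and its RNA was silent. Over the whole span and flanks, H19 had 1 of 32 cytosines called, Mest, Kcnq1ot1 and Impact 0 of 32, 32 and 93, and Gnas 12 of 625 by the authors' deposited table. The largest shares were 8.93% of 112 in Slc22a18, whose flank takes in Phlda2, and 8.60% of 93 in Phlda2. Usp29, Sgce and Zim1 followed with 7.78%, 7.69% and 7.59%. The share over the spans of all genes was not computed, so these shares stand without a background.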

How the data were processed

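Clones and assays are as described above. Trim Galore, Bismark, Bowtie2, methylKit, TopHat2, HTSeq and DESeq2 and build mm10 are named without role or setting, per the submitters' processing notes. The authors deposited, per the file headers, a mean level per gene (a signal, read as DESeq2's mean normalized count), a log2 fold change and its standard error on the log2 scale, a statistic (a score), and p-values with adjusted p-values. For each cytosine the authors deposited p-value and q-value, and the difference of percent methylation in percentage points. Coverage, pooling of clones and the sign are not stated; if reads were pooled, q-values do not measure spread between clones. Folds are moderated: among 2386 genes with a mean above 0 and at most 1 the largest log2 fold change was 0.11 in size. The authors' adjusted p-values matched Benjamini-Hochberg adjustment over 11482 genes. As the tables hold no counts, no model was fitted, and the planned rule on q-values served for methylation. From 2361933 lines 253 duplicates were removed. Python 3.11.15, pandas 2.3.3 and numpy 2.4.6 were used, and window calling was tested on simulated data. Members and lists were chosen with earlier results of these data known. All members are named; others only if on a fixed list and called, or overlapping a member, with exceptions stated. Marker genes and the regulators Zfp57, Trim28, Uhrf1 and Dnmt1 are named as background checks. Suz12, Asb4, Cd81, Nap1l4 and Tspan32 are named after their values were seen.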

Additional observations from a re-analysis of the deposited data

How the results depend on the processing

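No member was called in RNA-seq at adjusted p thresholds of 0.05 and 0.01, with adjustment over every gene with a p-value, at a mean normalized count of 100 or more, or with a log2 fold change of at least 1. At an adjusted p under 0.1 there was 1, Peg3. At an unadjusted p under 0.05, chosen after seeing the data, there were 2 among expressed members, and the silent Rasgrf1 (0.0416) also passed. The adjusted p of Peg3 was 0.1004 over every gene and 0.0648 at counts of 100 or more. By gene-end methylation 1 member, Airn, was called (lower, 6 of 40 cytosines) with 2000 bp on each side, where 2.75% of genes were called. Under the other alternatives 0 members were called, where 0.782% to 3.68% of genes were called. Among these was a window at the RefSeq promoter start, chosen after seeing the data. The share of called cytosines in member windows was 0.329% at q under 0.01 and 0.460% with a difference of at least 25 points. The matching shares over the windows of all genes were not computed. At q under 0.01, 1 of the 1 kb windows was called instead of 5 (0.680%, against 1.67% of all windows). A stricter q leaves fewer cytosines by construction. No paired analysis was possible because the tables hold no value per clone and the clones of both groups share no number; leaving out a clone could not be run for the same reason. Depth and coverage are unknown.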
